A study of Gallus gallus with 24 samples.

Results

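The comparison described here is the change, between 1 and 3 wk of age, in how abdominal fat of fat line (FL) cockerels differed from that of lean line (LL) cockerels. It rests on 8 of the 24 arrays of the study, the 4 arrays of 1 wk and the 4 of 3 wk, taken by the age in their labels. The study profiled abdominal adipose tissue of male broilers bred for a heavy (FL) or a light (LL) abdominal fat depot, at 6 ages, on spotted cDNA arrays read in 2 colours. Each array carried cDNA of 1 FL and 1 LL bird of the same age. FL cDNA was in the Alexa Fluor 647 channel on replicates 2 and 4 of each age and LL cDNA on replicates 1 and 3. All birds had a standard broiler growth regime, and no diet or drug treatment is given in the labels. The lines differ in their whole genetic background, so no difference can be assigned to a single allele.

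Abdominal fat of a young chick grows by the formation of new fat cells and by their filling with triglyceride. In birds most fatty acid is made in the liver and carried to the depot in lipoproteins, so that uptake, binding and esterification in the fat cell matter beside local synthesis. The depot also holds vessels with smooth muscle, mesothelium, nerve and immune cells, and whole tissue was arrayed here. A lower ratio of FL to LL for a cell type's genes can reflect fewer such cells, or less RNA in each, in FL. It can equally reflect more of either in LL, and these cannot be told apart in whole tissue.

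Values are log2 ratios of the lines, read as FL over LL because the labels name FL first. The numerator is not stated in the sources used here, and every sign turns if it was LL. "Higher at 3 wk" means that this ratio lay higher at 3 wk than at 1 wk, which gives no direction of expression within either line. Ratios hold no level, so the labelled tissue could not be checked against markers of fat cells, and no marker can be called absent. Features were named after exchanging row and column in the block, row and column identifiers of the spots. Of 15027 features, 6428 carried a gene symbol and 2770 of these averaged several spots. The values per array below are dye-corrected, meaning that each feature's fitted dye effect was removed, and they are given in the order of replicates 1 to 4, which are different birds at the 2 ages. A single value of a gene given for no age and no array is its change from 1 to 3 wk, also where an array was left out. Roles of genes are those known from mammals unless stated.

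No feature showed a change of the line difference from 1 to 3 wk that passed the test. In limma, 0 of 15027 features passed an adjusted p of 0.05 (0%), and the smallest adjusted p was 0.358, at an unnamed spot. Without adjustment, 355 features (2.36%) had p under 0.05, of which 170 were higher at 3 wk (1.13%) and 185 lower (1.23%), where 751 would be expected if no feature differed. Leaving out 3 wk replicate 1 gave 0 called and 544 at an unadjusted p under 0.05. With the ratios turned by the dyes, as described at the end, 5 features were called. The smallest adjusted p of a named gene was 1.00, so that all single genes below are described by their values and none is called. The median standard error of a change was 0.15 log2 units. Of the 93 genes the naming rule gave, 48 had a change that moved by over 1.5 times or took the other sign when some 1 of the 8 arrays was left out, and 7 took the other sign.

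Both ages taken alone also gave 0 called features (0% at each). At 1 wk 401 features (2.67%, with 1.66% higher and 1% lower) had an unadjusted p under 0.05, and at 3 wk 1033 (6.87%, with 3.51% higher and 3.37% lower). The first count was 781 without 1 wk replicate 3 and the second 578 without 3 wk replicate 2. Without 3 wk replicate 1, 18 features were called at 3 wk, and with array weights 173. Turned by the dyes, a reading described at the end that is not settled, 507 features were called at 1 wk and 377 at 3 wk. The line difference spread a little less across features at 1 wk (SD 0.13) than at 3 wk (SD 0.16), and the change between them had an SD of 0.18. Over single spots as deposited, the change had an SD of 0.19. Copies of 1 control clone, on 94 spots, had an SD of 0.14, and those of another, on 29 spots, 0.099. Much of the spread across spots was thus also seen between copies of 1 clone. The medians of the 48 print blocks ran from -0.15 to 0.10. Across the 15027 features the line differences of the 2 ages correlated at r = 0.28, over arrays that share no bird but share the printed spots. The 4 arrays at 1 wk resembled one another little, with a median pairwise correlation of -0.029 across features and a range from -0.35 to 0.057. At 3 wk the pairs had a median of 0.16 and ran from -0.093 to 0.36. Pairs of a 1 wk and a 3 wk array had a median of 0.048.

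**Figure D1:**
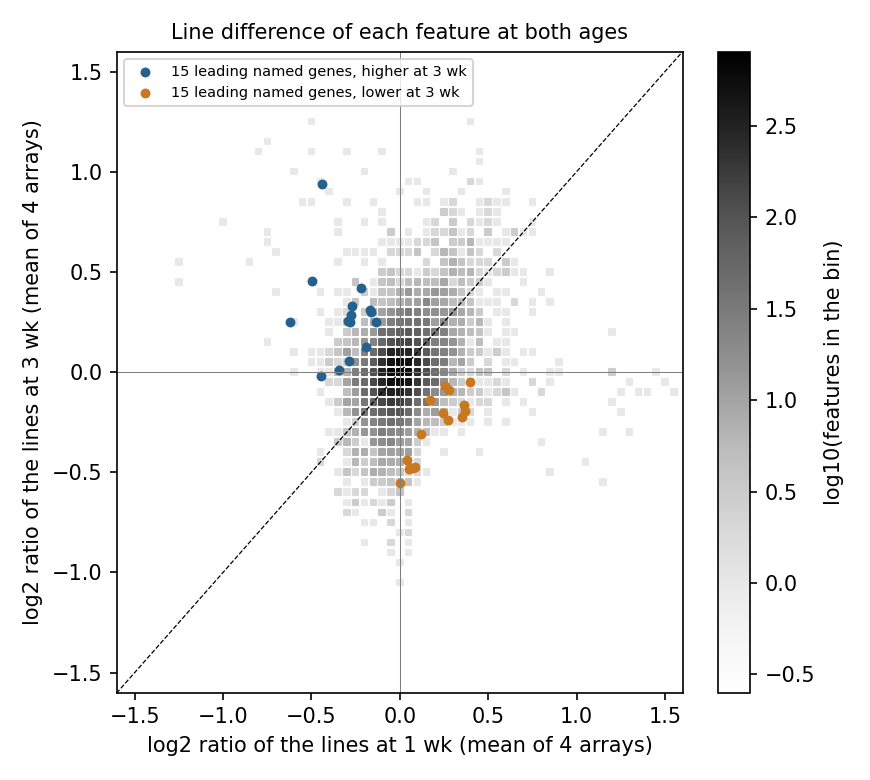
Mean log2 ratio of the lines for each of 15027 features at 1 wk (horizontal axis) and at 3 wk (vertical axis), 4 arrays each, with grey shade for the number of features in a bin on a log10 scale. Blue and orange points mark the 15 named genes with the smallest p in each direction, and the dashed line marks equal values. Most features lie close to the centre, and the correlation across features was 0.28.

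The 15 named genes with the smallest p among those higher at 3 wk all had a mean line difference below 0 at 1 wk, where 49.2% of all features lay above 0. At 3 wk 14 of 15 lay above 0, against 50.3% of all features. Since p of this contrast chose them, these values are a description. Their changes ran from 0.32 to 1.38, a ratio of ratios of 1.24 to 2.60, and unadjusted limma p from 0.0011 to 0.011. For 10 of the 15 the 4 arrays of 3 wk all lay above the 4 of 1 wk, which 110 of all features (0.732%) did. Of the 15, 8 rested on a single spot, so that no other spot or clone of the gene could be compared. The last gene inside the rule was CD69L at 0.53, and the next outside it was SFTPA1 at 1.73.

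LUC7L2, a factor bound to the U1 particle of the splicing machinery, came first. Its 1 wk arrays stood at -0.92, -0.72, -0.31 and -0.55, and its 3 wk arrays at -0.077, 0.64, 0.024 and 0.41. All 4 arrays of 1 wk lay below 0 and below every array of 3 wk. The means were -0.62 ± 0.26 and 0.25 ± 0.33 (SD, n = 4 arrays at each age), a change of 0.87 (SE 0.23), from a single spot.

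ATP1B1 encodes the beta subunit of the sodium pump, which keeps the sodium and potassium gradients of the cell. Its ratio was -0.20, -0.32, -0.21 and -0.15 at 1 wk and 0.34, 0.96, 0.30 and 0.086 at 3 wk. The sign thus differed on every array between the ages, a pattern that 34 features (0.226%) had in this direction. The change of 0.64 (SE 0.18) was the mean of 11 spots of 2 clones, all of which lay above 0, from 0.047 to 1.06.

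TPM2, the beta chain of tropomyosin, stood at -0.20, -0.31, 0.073 and -0.099 on the 1 wk arrays. At 3 wk it stood at 0.085, 0.45, 0.21 and 0.26, all above the highest of 1 wk. Its 6 spots of 6 clones gave a change of 0.38 (SE 0.11), and 5 of them lay above 0. LYG2, a goose-type lysozyme, had the widest change of the 15, 1.38 (SE 0.42), from a single spot. Its 1 wk arrays stood at 0.61, -0.75, -0.92 and -0.72 and its 3 wk arrays at 0.35, 2.29, 0.68 and 0.44. The groups overlapped, since 1 wk replicate 1 lay high, and 3 wk replicate 2 was far above the rest. Without 3 wk replicate 2 the change of LYG2 was 0.90.

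CDT1, which licenses replication origins, stood at -0.34 ± 0.17 at 1 wk and 0.0094 ± 0.18 at 3 wk (SD, n = 4 each), with no overlap. Its 2 spots, of different clones, had changes of opposite sign, -0.16 and 0.86. RCHY1, a ubiquitin ligase that acts on p53, had a change of 0.95 (SE 0.34), from 2 spots at 0.14 and 1.76. The change was 0.32 (SE 0.11) for IWS1, a partner of the elongating polymerase, and 0.55 (SE 0.18) for LBH, a transcription cofactor. PARD3B, of the cell polarity complexes, lay below 0 on every 1 wk array, at -0.44 ± 0.20, and close to 0 at 3 wk, at -0.017 ± 0.12. The change was 0.35 for GEM, a small GTPase, 0.48 for the inositol phosphate kinase ITPK1, 0.60 for the calmodulin-like CALML4 and 0.53 for the lectin-like CD69L. The change of ITPK1 was 0.28 without 3 wk replicate 2, and its 2 spots differed, at -0.020 and 0.98. Without 1 wk replicate 3 the change of CALML4 was 0.37. LOC417447 and TCP11X2 stood at 0.56 and 0.46, with the 2 spots of LOC417447 at 0.063 and 1.05.

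The 15 named genes leading in the other direction had changes from -0.58 to -0.31, a ratio of ratios of 0.67 to 0.81. Here 14 of 15 had a mean above 0 at 1 wk and 0 of 15 at 3 wk. The arrays of 3 wk all lay below those of 1 wk for 6 of the 15, as for 140 of all features (0.932%). Of these 15, 9 rested on a single spot. The last gene inside the rule was GPD1 at -0.48, and PGM1, of glycogen breakdown, was the next outside it at -0.30.

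GPD1, the enzyme that supplies glycerol 3-phosphate for triglyceride assembly, stood at -0.18, -0.037, 0.13 and 0.25 at 1 wk. At 3 wk its arrays stood at -0.22, -0.91, -0.50 and -0.13. All 4 arrays of 3 wk lay below 0, and the 2 ages overlapped through 1 wk replicate 1 and 3 wk replicate 4. Without 3 wk replicate 2 the change of GPD1 was -0.32, against -0.48 (SE 0.17) with all arrays.

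COL4A1, a collagen of basement membranes, stood at 0.019, -0.0049, -0.31 and 0.29 at 1 wk and 0.0044, -1.16, -0.49 and -0.58 at 3 wk. A single 3 wk array lay near 0 and the other 3 lay lowest, for a change of -0.56 (SE 0.19), which was -0.34 without 3 wk replicate 2. NT5E, the ectoenzyme that turns AMP into adenosine, stood at 0.073, 0.092, 0.63 and 0.19 at 1 wk and -0.086, -0.096, -0.45 and -0.19 at 3 wk. Its sign turned on every array from above to below 0, as did that of 34 features (0.226%). LRRC45, a centrosomal protein, had the same pattern, with a change of -0.51 (SE 0.18).

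The change was -0.58 (SE 0.17) for the repressor ZGPAT, -0.54 (SE 0.17) for the histone demethylase PHF2 and -0.56 (SE 0.19) for the histone chaperone ASF1A. It was -0.56 for ANP32E, a chaperone of a histone variant, and -0.45 for the RNA uridylyltransferase ZCCHC11. SELPLG, the leukocyte ligand of P-selectin, stood at 0.28 ± 0.14 and -0.089 ± 0.21 at the 2 ages, with no overlap. PSAT1, of serine synthesis, had a change of -0.56, YME1L1, a mitochondrial protease, -0.31, and the ubiquitin ligase RNF41 -0.43. Without 3 wk replicate 4 the changes of RNF41 and ANP32E were -0.25 and -0.34. The guidance ligand SLIT1 stood at -0.53 and the Wnt receptor FZD6 at -0.33.

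**Figure D2:**
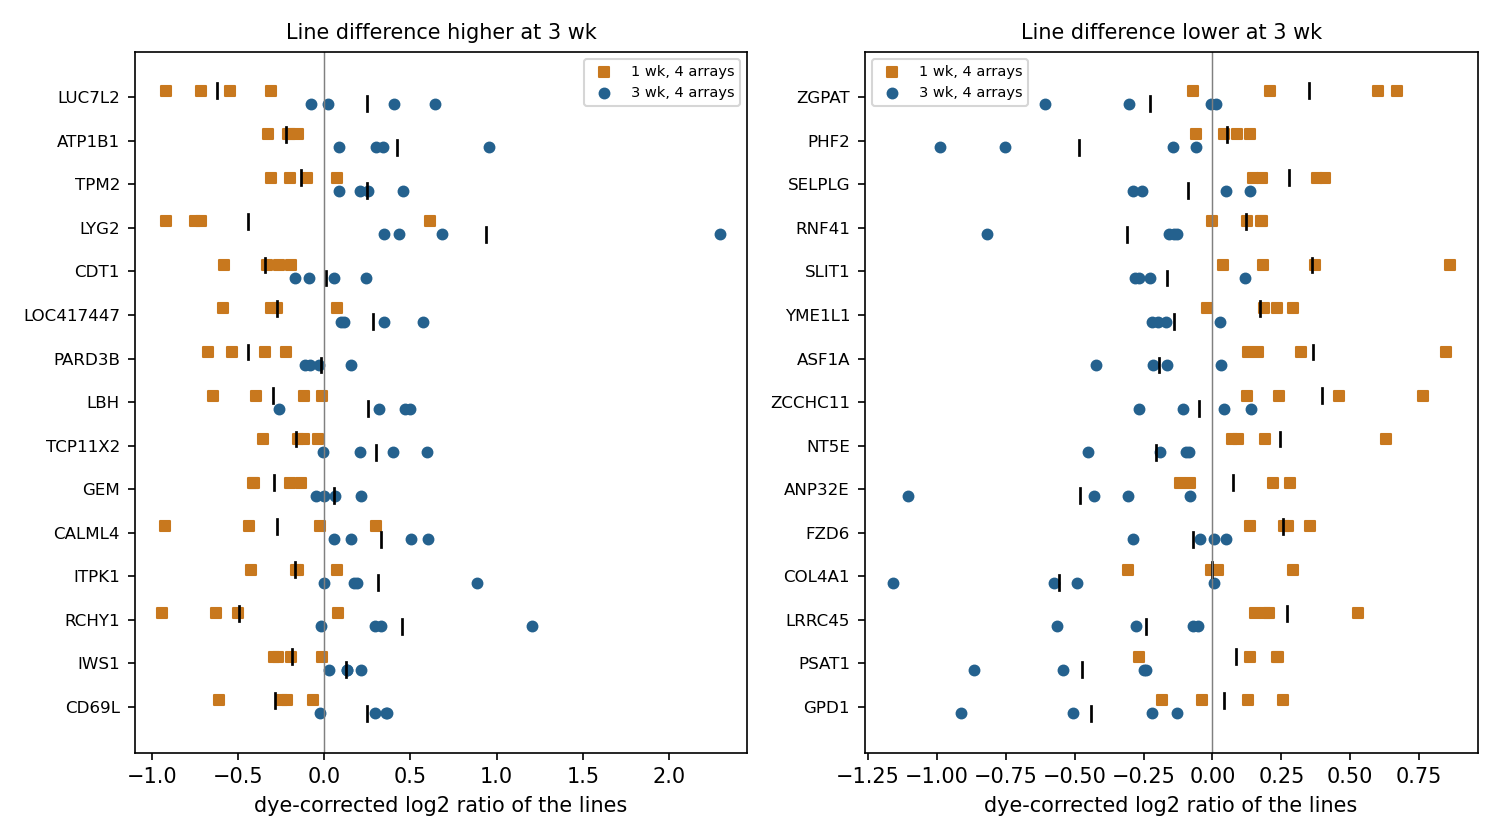
Dye-corrected log2 ratio of the lines on each of the 4 arrays of 1 wk (orange squares) and of 3 wk (blue circles) for the 15 named genes with the smallest p in each direction, with a black bar at each mean. The left panel holds genes higher at 3 wk, with changes from 0.32 to 1.38, and the right panel those lower, from -0.58 to -0.31, and 0 of these genes passed adjustment.

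Gene lists were then read by the sign and the median of the change. Among all features 50% and among named genes 49.3% had a change above 0, and the median change of named genes was -0.0026. Named genes with an unadjusted p under 0.05 made up 0.965% in the higher and 1.21% in the lower direction. Of 29 lists, 15 had a median above 0. All 29 medians moved by over 1.5 times or took the other sign when some 1 array was left out, and 19 took the other sign. No list member passed an adjusted p of 0.05, against 0% of all features.

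Most genes of fat uptake and storage had a lower ratio at 3 wk, with none called. Of 16 measured triglyceride storage genes (of 32 listed), 13 had a change below 0, with a median of -0.098. The fatty acid binding proteins FABP5 and FABP4 stood at -0.29 and -0.38, the acyltransferase GPAT3 at -0.30, and the fatty acid transporter CD36 at -0.17. Without 1 wk replicate 4 the change of GPAT3 was -0.12. The members FABP3, SLC27A1 and MOGAT1 lay above 0. The list median on the arrays was 0.0081, 0.12, 0.021 and 0.56 at 1 wk and 0.17, 0.10, -0.071 and 0.024 at 3 wk. The 1 wk replicate 4 array stood alone, and without it the median change was 0.0092.

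FABP4, the main fatty acid binding protein of fat cells, shows this array most clearly. It stood at 0.048, 0.13, 0.022 and 2.92 at 1 wk and 0.30, 0.81, 0.11 and 0.38 at 3 wk. Without 1 wk replicate 4 its change was 0.37, against -0.38 (SE 0.52) with it. THRSP, a promoter of lipogenesis that answers to thyroid hormone, had 2 spots of different clones, with changes of -0.78 and 0.21. Their mean stood at -0.039, -0.21, 0.26 and 1.58 at 1 wk, and the change of -0.28 became 0.13 without 1 wk replicate 4. PPARG, the regulator of fat cell formation, and G0S2, an inhibitor of fat breakdown, were also highest on it, at 1.25 and 1.75. Their changes were -0.33 (SE 0.34) and -0.61 (SE 0.47), and without it -0.031 and -0.20.

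Fatty acid synthesis genes had little net difference, with 14 of 23 below 0 and a median of -0.040. FASN, the fatty acid synthase, stood at 0.16 ± 0.30 at 1 wk and 0.10 ± 0.15 at 3 wk, and its 2 spots had changes of -0.25 and 0.13. ACACA, which makes its malonyl-CoA substrate, had a change of -0.022 (SE 0.13), and the desaturase SCD 0.033 (SE 0.23). The change of each of these 3 genes took the other sign when some single array was left out.

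In fatty acid oxidation 15 of 23 genes lay below 0 (median -0.040), and in mitochondrial respiration 27 of 42 (median -0.038). ACADL, a dehydrogenase of long-chain acyl-CoA, stood at -0.11, 0.11, -0.063 and 0.017 at 1 wk and -0.15, -0.32, -0.31 and -0.77 at 3 wk. All its 3 wk arrays lay below all its 1 wk arrays, for a change of -0.37 (SE 0.14), and -0.24 without 3 wk replicate 4. Sterol synthesis genes lay below 0 in 13 of 17 cases, with a median of -0.034. CYP51A1 and MSMO1, which remove methyl groups from lanosterol and its products, stood at -0.21 and -0.23.

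Lipolysis genes had a median of -0.025 over 7 genes and adipokines one of -0.060 over 19. ADIPOQ, the insulin-sensitising adiponectin, went against its list, with -0.22 ± 0.26 at 1 wk, 0.083 ± 0.16 at 3 wk and a change of 0.30 (SE 0.16). Adipogenic regulators had 14 of 27 above 0 and a median of 0.013. Their leading gene was BMP7, a growth factor of brown fat formation, at 0.52 (SE 0.19), from 2 spots at 0.060 and 0.97. RBP7, a retinol binding protein of the fat depot and its vessels, stood at 0.73 ± 0.55 at 1 wk and -0.043 ± 0.21 at 3 wk. Its change was -0.77 (SE 0.29), from a single spot. Turned by the dyes, as described at the end, the changes of ADIPOQ, BMP7 and RBP7 took the other sign. The median over the 17 measured retinoid genes was -0.011, near that of all named genes.

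Thyroid axis genes lay lower at 3 wk in 8 of 10 cases, with a median of -0.20. Among them the changes were -0.22 and -0.20 for DIO2 and DIO1, deiodinases that convert thyroid hormones, and -0.20 for the receptor THRA. The mean ratio of DIO2 was 0.24 at 1 wk and 0.025 at 3 wk. Without 1 wk replicate 2 the change was -0.057 for DIO2 and -0.12 for THRA. THRSP and the carrier TTR belong to this list as well as to others. The list median was -0.017, 0.11, 0.11 and -0.082 on the 1 wk arrays and -0.041, -0.051, -0.060 and -0.018 on the 3 wk arrays, which overlapped, and the median change was -0.063 without 1 wk replicate 2.

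**Figure D3:**
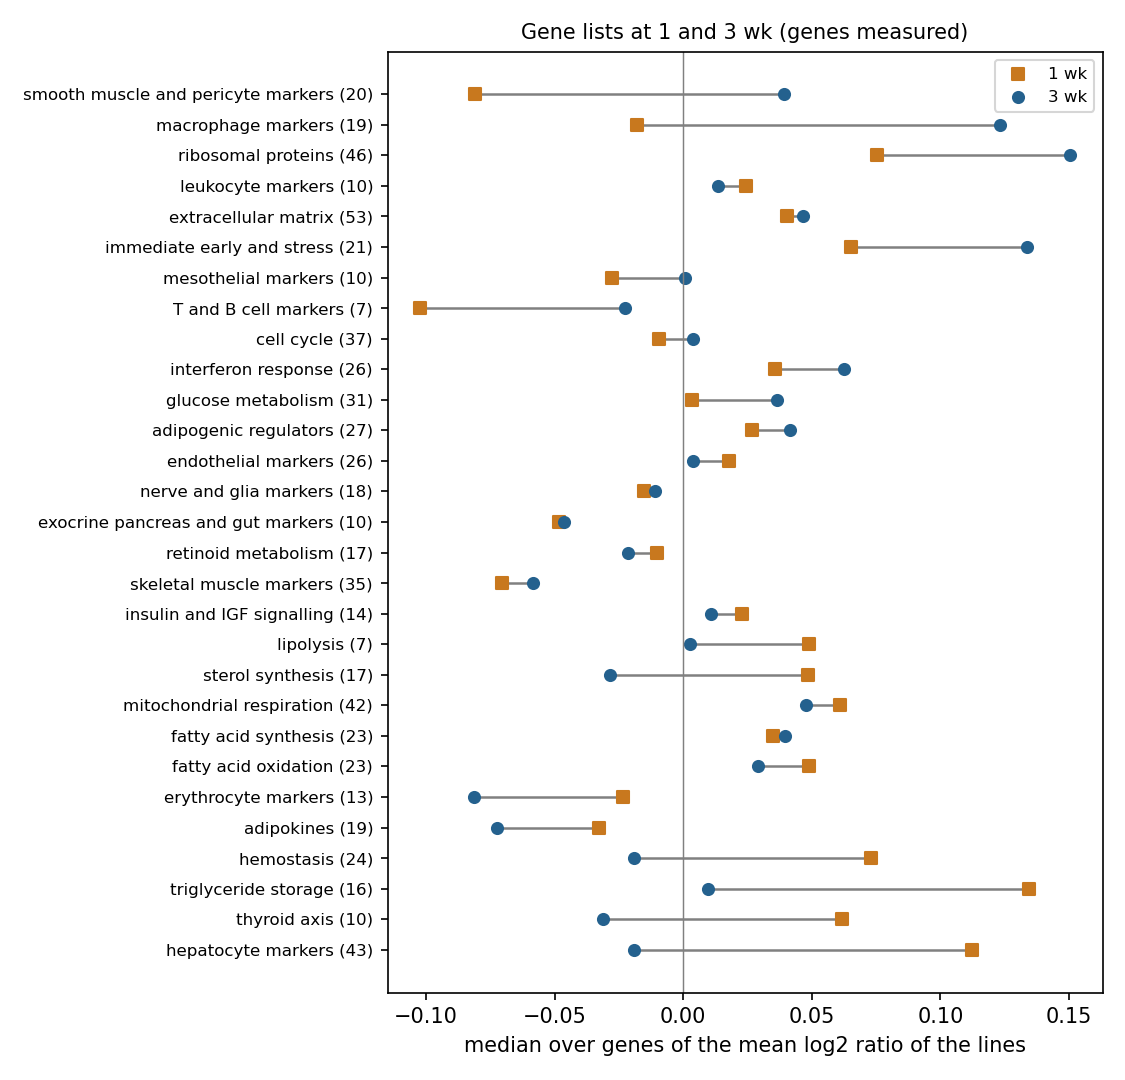
Median over the measured genes of each of 29 lists of the mean log2 ratio of the lines at 1 wk (orange squares) and 3 wk (blue circles), with the number of genes measured beside each name, ordered by the median change. The hepatocyte list lies at the bottom, with a median change of -0.21, and smooth muscle at the top, with 0.13. The median change is taken over the changes of single genes. It can differ in size and sign from the distance between the points, as for leukocyte markers, with points at 0.024 and 0.014 and a median change of 0.051.

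Markers of hepatocytes had the lowest median change of the lists, -0.21, with 34 of 43 genes below 0. Albumin (ALB) stood at -0.93, the fibrinogen chain FGB at -1.37, the vitamin D carrier GC at -0.67 and the retinol carrier RBP4 at -0.58. Their list median on the 4 arrays of 1 wk was 0.033, 0.56, 0.071 and -0.22, and on those of 3 wk 0.035, -0.065, 0.00074 and -0.050. The 1 wk replicate 2 array lay far above the others and replicate 4 below them, and without replicate 2 the median change was 0.017. FGB stood at 0.011, 4.28, 0.14 and -1.06 at 1 wk and -0.070, -0.87, -0.22 and -0.94 at 3 wk, and its change was -0.15 without that array. RBP4 stood at -0.23 without 3 wk replicate 2. The part of liver RNA in these values was not tested. Hemostasis genes, many of them made in liver and shared with that list, had a median of -0.092 with 17 of 24 below 0, and -0.015 without the same array.

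Among blood markers, 11 of 13 erythrocyte genes lay below 0 (median -0.057, and -0.020 without 3 wk replicate 3). Turned by the dyes, as described at the end, the median was 0.083. The alpha globin HBA1 stood at 0.48 ± 0.49 at 1 wk and -0.19 ± 0.25 at 3 wk. The amount of blood in the samples was not measured, and its part in the result was not tested.

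Smooth muscle and pericyte markers had the highest median change, 0.13, with 13 of 20 above 0. Turned by the dyes, as described at the end, this median took the other sign. Against 0.965% of named genes, 4 of the 20 had an unadjusted p under 0.05 in the higher direction. These were TPM2, the integrin ITGA8 at 0.44 (SE 0.16), the myosin light chain MYL9 at 0.32 (SE 0.13) and the actin and myosin binding CALD1 at 0.37 (SE 0.17). Without 1 wk replicate 4 the change of ITGA8 was 0.27. ACTA2, smooth muscle actin, went the other way at -0.22, and TAGLN and DES lay near 0 at 0.022 and -0.039. The list median was -0.069, 0.0046, -0.098 and 0.0077 at 1 wk and 0.010, 0.074, 0.12 and 0.0036 at 3 wk, and without 1 wk replicate 4 the median change was 0.024. Skeletal muscle markers, in contrast, had a median of -0.012 over 35 genes, close to that of all named genes. Whether the amount of vessel or muscle tissue differed was not tested.

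Extracellular matrix genes lay above 0 in 31 of 53 cases, with a median of 0.047, which was 0.017 without 3 wk replicate 1. Turned by the dyes, this median also took the other sign. COL4A1, the member with the smallest p, went against the list, with a change of -0.56 (SE 0.19). FN1, the fibronectin of the tissue matrix, stood at -0.15, 0.056, 0.027 and -0.18 at 1 wk and 0.18, 0.37, 0.22 and 0.092 at 3 wk. All its 3 wk arrays lay above the 1 wk arrays, and the change was 0.28 (SE 0.12) over 6 spots, 4 of them above 0. COL6A3 stood at 0.32 ± 0.85 and 0.85 ± 0.54, with 3 wk replicate 2 at 1.66, and without that array its change was 0.25, against 0.53 (SE 0.39) with it. COL1A2 had a change of 0.34 (SE 0.29), and 0.17 without 1 wk replicate 4. POSTN, a matrix protein of growing tissue, had a change of -0.085 (SE 0.37), which became 0.36 without 1 wk replicate 4, where it stood at 1.84.

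Macrophage markers lay above 0 in 13 of 19 cases, with a median of 0.11 that ran from 0.071 to 0.19 over single arrays left out. Beside LYG2, the scavenger receptor MARCO stood at 0.43, the protease CTSD at 0.43 and the complement chains C1QC and C1QB at 0.40 and 0.34. CSF1R, the receptor for the growth factor of macrophages, stood at 0.11, while C3 stood at -0.24. The change of CTSD was 0.22 without 3 wk replicate 2. The list median was -0.033, 0.018, -0.027 and -0.13 at 1 wk and -0.15, 0.42, 0.10 and 0.13 at 3 wk, lowest on 3 wk replicate 1 and highest on 3 wk replicate 2. Broader leukocyte markers had a median of 0.051 over 10 genes, and of -0.013 without 1 wk replicate 4. In that list both members with an unadjusted p under 0.05, SELPLG and LCP1, lay lower (-0.37 and -0.25). Among all named genes 1.21% had such a p in the lower direction. Only 7 of 46 lymphocyte markers were measured, with a median of 0.027. GPR183, a receptor that guides immune cells, had a change of 0.71 (SE 0.37) from a single spot, and of 0.48 without 3 wk replicate 2. Its change took the other sign when turned by the dyes, and also with the spot names as given. Whether the number of immune cells differed was not tested.

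Ribosomal protein genes had a median of 0.092, with 29 of 46 above 0. The list median on the arrays was -0.043, -0.13, 0.34 and 0.19 at 1 wk and 0.031, 0.48, 0.12 and 0.065 at 3 wk. Both ages held a high array, and without 3 wk replicate 2 the median change was -0.031. RACK1, a scaffold on the small ribosomal subunit, stood at -0.18, 0.093, 0.29 and 0.25 at 1 wk and 0.45, 1.09, 0.53 and 0.46 at 3 wk. The groups did not overlap, and the change was 0.52 (SE 0.22). RPL3, of the large subunit, had a change of 0.30 (SE 0.33), and of 0.073 without 1 wk replicate 2.

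Immediate early and stress genes had 3 of 21 members with an unadjusted p under 0.05, all higher, against 0.965% of named genes in that direction. The list had a median change of 0.033. Without 3 wk replicate 2, where the list stood highest at 0.33, the median change was -0.041. JUN, a subunit of the AP-1 transcription factor, stood at -0.26, 0.071, -0.11 and 0.24 at 1 wk and 0.37, 0.66, 0.32 and 0.32 at 3 wk. Every 3 wk array lay above every 1 wk array, a change of 0.43 (SE 0.16). BTG1, which restrains proliferation, stood at 0.31 (SE 0.11) and the chaperone DNAJA4 at 0.25 (SE 0.11). Turned by the dyes, as described at the end, the changes of JUN and BTG1 took the other sign. Of 26 interferon response genes, OASL, an antiviral protein, stood highest by p, at 0.30 (SE 0.13), and the list median was 0.016. Cell cycle genes had 23 of 37 above 0, with a median of 0.027.

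The remaining lists had medians close to 0. They were 0.015 for glucose metabolism, -0.017 for insulin and IGF signalling, 0.0086 for endothelial, 0.031 for mesothelial, 0.0031 for nerve and glia, and 0.0014 for pancreas and gut markers. Within glucose metabolism the aldolase ALDOC and PGM1 were the 2 members with an unadjusted p under 0.05, at -0.28 (SE 0.12) and -0.30 (SE 0.11). Among all named genes 1.21% had such a p in the lower direction. The 2 spots of PGM1, of different clones, differed in sign, at -0.62 and 0.020, and the 5 of ALDOC ran from -0.81 to -0.061. INSR, the insulin receptor, lay above 0 on all 1 wk arrays and below 0 on all 3 wk arrays, with a change of -0.14 (SE 0.10). ID3, which blocks the binding of basic helix-loop-helix factors to DNA, had the opposite pattern, at 0.15 (SE 0.12). EZR, a membrane to actin linker of the mesothelium, stood at 0.24 (SE 0.10).

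Other genes that led their lists by p are given by their values, and none passed adjustment. Of the respiratory chain, NDUFV3 of complex I stood at 0.56, -0.21, 0.81 and 0.27 at 1 wk and 0.049, -0.092, 0.13 and -0.063 at 3 wk, and UQCRQ of complex III at 0.40 ± 0.47 and 0.074 ± 0.12 (SD, n = 4). NUCB2, the precursor of the satiety peptide nesfatin, stood at -0.15, 0.043, 0.16 and -0.042 at 1 wk and -0.29, -0.41, -0.42 and -0.18 at 3 wk, with no overlap and a change of -0.32 (SE 0.16). For the elongation of fatty acids ELOVL1 had a change of -0.17 (SE 0.11) and HSD17B12 -0.27 (SE 0.18), while HADHB, a subunit of the trifunctional protein of beta-oxidation, had -0.16 (SE 0.11) and the lysosomal lipase LIPA 0.12 (SE 0.15). Leaving out 1 array brought UQCRQ, with a change of -0.33, to -0.10 (1 wk replicate 4), NDUFV3, with -0.35, to -0.19 (1 wk replicate 3) and LIPA to 0.036 (1 wk replicate 4). In the endothelial list, with 14 of 26 genes above 0, the transcription factor ERG stood at -0.37 (SE 0.18) and the secreted EGFL7 at 0.14 (SE 0.083). In that for skeletal muscle, with 16 of 35 above 0, the slow troponin TNNI1 stood at -0.30 (SE 0.15). The tropomyosin TPM3 stood at 0.21 (SE 0.14), which was 0.075 without 1 wk replicate 2. ERG stood at -0.20 without 1 wk replicate 1.

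F8, the clotting cofactor, stood at -0.58, 0.63, 0.076 and -0.37 at 1 wk and -0.014, -1.87, 0.18 and -0.93 at 3 wk. Its 3 wk replicate 2 lay lowest of the 8 arrays, and the change was -0.60 (SE 0.37) with that array and -0.17 without it. ITIH2, a liver protein that binds hyaluronan, had a change of -0.44 (SE 0.19), and of -0.15 without 1 wk replicate 2. The mitotic kinesin KIF20A stood at -0.32, and at -0.065 without 3 wk replicate 2. IRF9, of the interferon-activated complex, stood at 0.37 and, without 1 wk replicate 4, at 0.14. Others were the large subunit protein RPL27 at 0.13, and the mTOR inhibitor TSC1 at -0.15. The nerve gene STMN2 had a change of -0.35. S100B, a glial gene that fat cells also express, had one of -0.37 and lay below 0 at both ages, at -0.30 ± 0.31 and -0.68 ± 0.72. Its change was -0.038 without 3 wk replicate 4, and that of STMN2 was -0.19 without 1 wk replicate 1. Of the T and B cell list, CD40 and CD3E had changes of -0.11 and 0.089. The carbonic anhydrase CA2, of the erythrocyte list, had a change of -0.16, and GPM6A, of the mesothelial list, one of -0.18. For the pancreatic enzymes CEL and CELA1 the changes were 0.11 and -0.18.

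**Figure D4:**
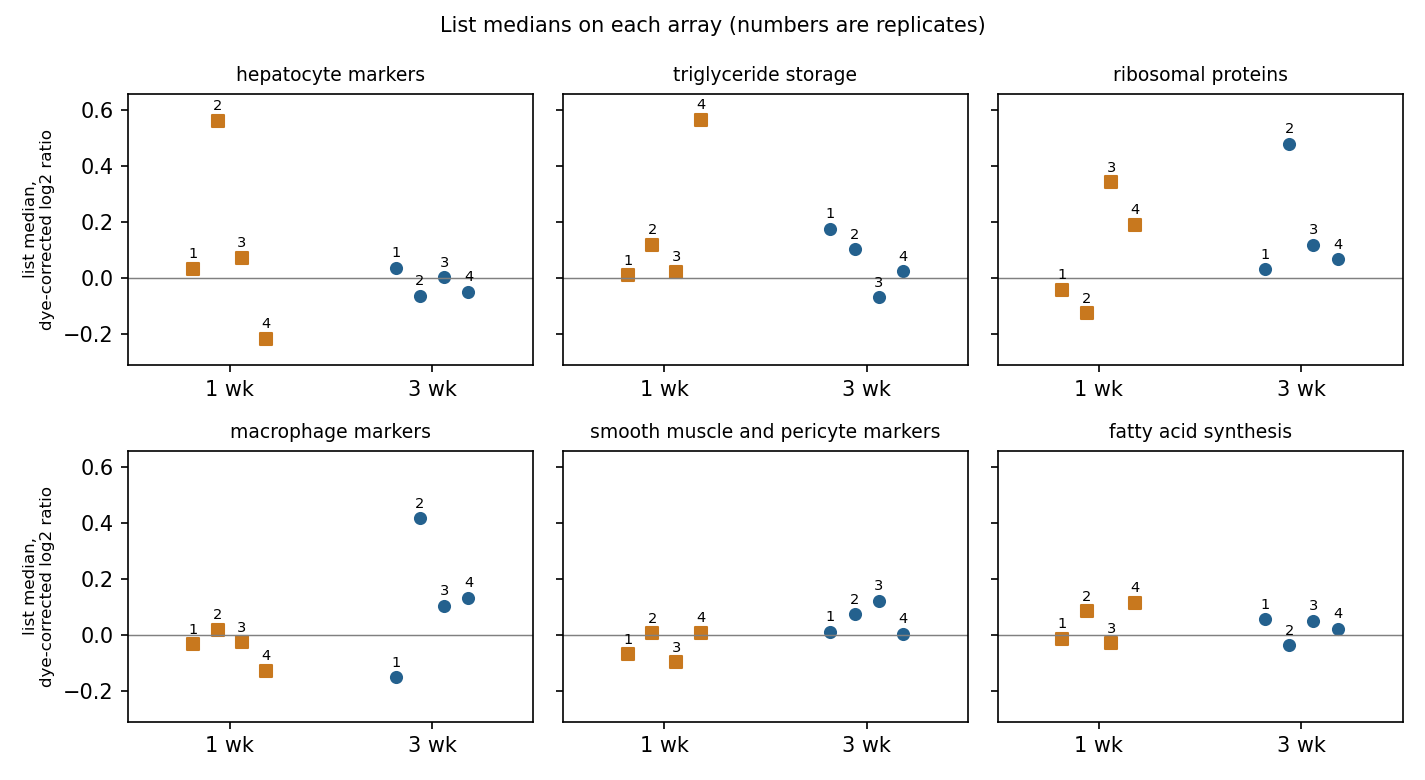
Median dye-corrected log2 ratio of the lines over the measured genes of 6 lists on each array of 1 wk (orange squares) and 3 wk (blue circles), with the replicate number beside each point. Single arrays stand apart, such as 1 wk replicate 2 for hepatocyte markers at 0.56 and 1 wk replicate 4 for triglyceride storage at 0.56.

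The later ages show whether the leading genes kept their line difference. They come from other birds, but share the fit and the printed spots. Of the 15 genes higher at 3 wk, 13 had a mean above 0 over the 16 arrays of 5 to 11 wk, with a median of 0.14, against 52.5% of all features above 0. Their values at 1 and 3 wk chose these genes, so only the later ages add to the description. LUC7L2 stood at 0.22, 0.22, 0.19 and 0.46 at 5, 7, 9 and 11 wk, so that its 1 wk mean was the value apart. TPM2 stood at -0.13, -0.083, -0.088 and 0.17, on the side of its 1 wk mean up to 9 wk and of its 3 wk mean at 11 wk. Of the 15 genes lower at 3 wk, 5 had a mean above 0 over the later arrays, with a median of -0.035, between their values at the 2 young ages. COL4A1 was at -0.0088, 0.12, 0.069 and 0.098, so that its 3 wk mean was the value apart.

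The other steps between neighbouring ages also gave 0 called features. Without adjustment 591 features had p under 0.05 from 3 to 5 wk, 304 from 5 to 7 wk, 815 from 7 to 9 wk and 510 from 9 to 11 wk, against 355 from 1 to 3 wk. Neighbouring steps share an age, and the counts were not tested against each other.

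**Figure D5:**
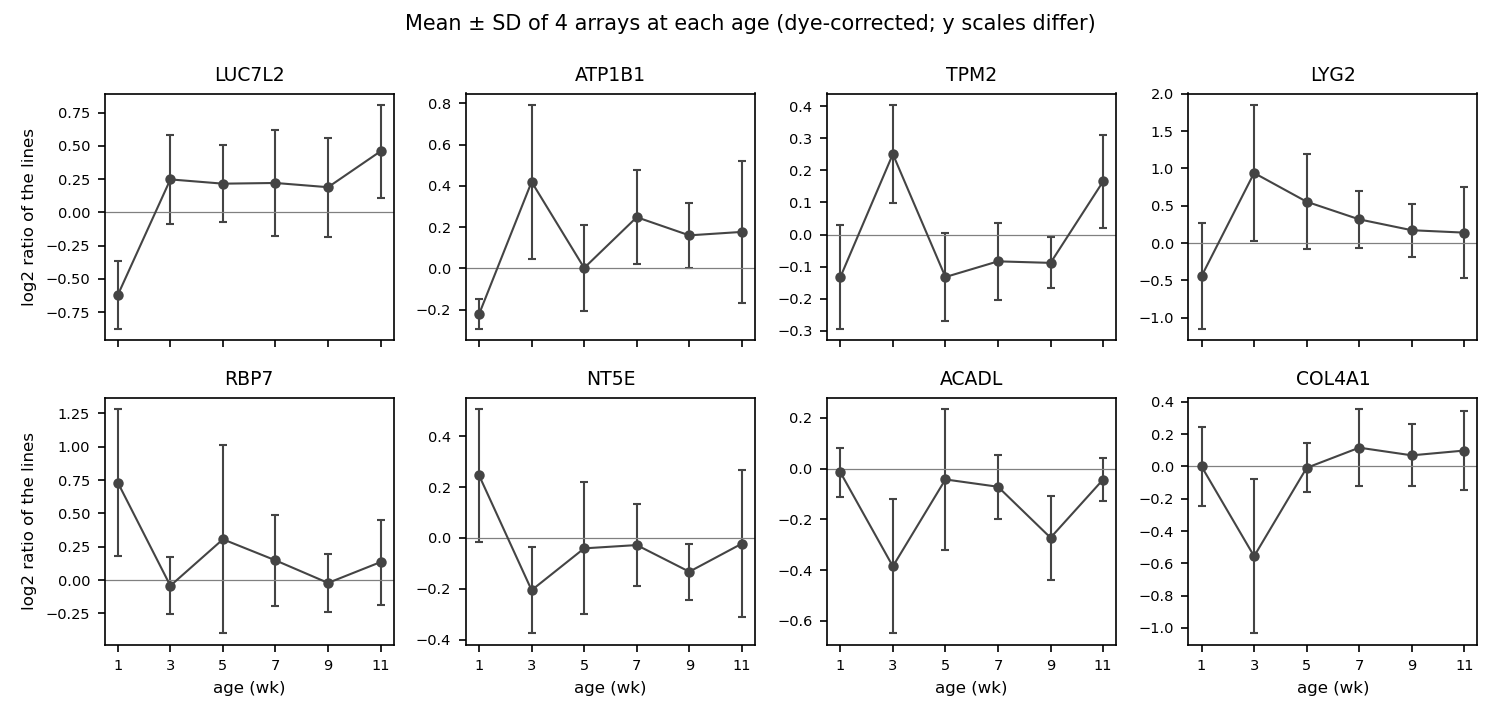
Mean ± SD (n = 4 arrays at each age) of the dye-corrected log2 ratio of the lines at 6 ages for 8 genes, with vertical scales that differ between panels. LUC7L2 lies below 0 at 1 wk and above 0 at every later age, and COL4A1 lies lowest at 3 wk, at -0.56.

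The ratios were read as deposited, and the sources used here do not settle whether those of one dye orientation should be turned. Turned by the dyes, 5 features passed an adjusted p of 0.05 in limma, 4 of them higher at 3 wk, and the smallest adjusted p was 0.0068. Over 1004 spots of 472 clones printed several times, copies of a clone had an intraclass correlation of the change of 0.31 as deposited and of 0.11 turned. Different clones of a gene had values of 0.085 and 0.064 over 6121 spots of 2601 genes. Of the 29 list medians 12 had the opposite sign when turned. Those for hepatocytes, triglyceride storage, thyroid axis, macrophages and ribosomal proteins kept their sign, and those for smooth muscle, extracellular matrix and erythrocytes were among the 12. Of the 93 named genes 31 had the opposite sign when turned. Among the leading genes higher at 3 wk these were TCP11X2, CALML4 and CD69L. Among those lower at 3 wk they were ZGPAT, SLIT1, YME1L1, ASF1A, ZCCHC11, NT5E, FZD6, LRRC45 and PSAT1. Of leading genes that kept their sign, LUC7L2 stood at 0.28, ATP1B1 at 0.12, TPM2 at 0.18, GPD1 at -0.15 and COL4A1 at -0.46 in that reading.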

How the data were processed

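RNA of 24 FL and 24 LL birds was compared on 24 2-colour cDNA arrays. For every spot and array the authors deposited a log2 ratio of the 2 channels. Per the submitters' processing notes, R 2.11.1 and limma 3.4.5 were used. How background and normalization were handled, the sign and the log base are not given in the sources used here. Base 2 is assumed, as limma writes it. No intensity was used, so signal over background is unknown and the number of arrays limits the precision.

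The 123 spots of 2 control clones were left out and spots of a gene were averaged, giving 15027 features with values on at least 3 of 4 arrays per age. Of 19200 spots 10601 were named, and 98.6% of these gene identifiers were found in the RefSeq gene table (assembly bGalGal1.mat.broiler.GRCg7b), which served to check names alone. limma 3.58.1 (R 4.3.3) fitted 6 ages and a dye orientation term to all 24 arrays, and the contrast was 3 wk minus 1 wk, with Benjamini-Hochberg adjustment over all features. Variation among birds and among arrays enters these p-values as 1 spread. The 75 features lacking a value on some array all lacked one on 1 wk replicate 4, and were fitted on the arrays they have. The fit was tested on simulated data with independent normal noise for each feature and array. Those data held no print block effect and no link between the noise of different features, so the test does not cover these.

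Named genes were the 15 of smallest p in each direction, the 2 of smallest p in each of 29 lists, and 16 fixed genes, of which LPL was not measured. Other list members given were chosen after their values were seen. The genes, lists and members were chosen with earlier results of these data known. The main fit did not pair arrays by replicate number. The correlation of deviations between same-numbered arrays of the 2 ages, which share a dye orientation, ran from 0.0068 to 0.29. It was over 0.1 for 2 of 4 numbers, and it ran from -0.23 to 0.20 after dye correction. These values do not settle whether the numbers pair the arrays. Alternatives included other fits, normalizations, namings, the turned ratios and each array left out in turn.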

Additional observations from a re-analysis of the deposited data

Results flagged for a closer look

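Among 244 groups of 4 arrays, for 93 genes and 29 lists at the 2 ages, 15 held an array far from the other 3, where chance gives about 1 in 20. On 3 wk replicate 2 these were SLIT1 at 0.12, RACK1 at 1.09, JUN at 0.66, COL6A3 at 1.66, and the medians of mitochondrial respiration at 0.052 and of immediate early and stress genes at 0.33. On 1 wk replicate 4 they were BTG1 at -0.27, FABP4 at 2.92 and the endothelial median at -0.10. The others were LYG2 at 0.61 on 1 wk replicate 1, TPM3, a tropomyosin, at -0.45 on 1 wk replicate 2, LRRC45 at 0.53 and the lipolysis median at 0.21 on 1 wk replicate 3, the fatty acid oxidation median at -0.057 on 3 wk replicate 3, and RNF41 at -0.82 on 3 wk replicate 4.

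For 6 named genes every array of 1 wk lay on one side of 0 and every array of 3 wk on the other. Among all features 34 (0.226%) did so in each direction. Most of the named genes were chosen by the p of this same change, so the count of 6 is a description. The changes were 0.64 for ATP1B1, 0.32 for IWS1, 0.15 for ID3, -0.45 for NT5E, -0.51 for LRRC45 and -0.14 for INSR. The difference between the ages did not pass adjustment in limma for any of them (adjusted p = 1.00 for each).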

How the results depend on the processing

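The count of 0 features with a change stayed at 0 under the other fits, filters and normalizations run and on leaving out each 1 or 3 wk array, with the replicate number as a block included (0 called, 359 at an unadjusted p under 0.05). The exceptions were the ratios turned by the dyes, with 5 features (4 higher), and turned with each print block centred on its median, with 11 (6 higher). Under these 2 readings the line difference gave 507 and 422 features at 1 wk and 377 under each at 3 wk. At 3 wk array weights gave 173 features, and leaving out single arrays 0 to 18. At 1 wk quantile normalization gave 1 feature and leaving out 5 wk replicate 2 also 1, and leaving out single 1 or 3 wk arrays 0 to 0. Why these counts differ was not tested. The replicate block changed no other call.

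Turned by the dyes, the changes of opposite sign were TCP11X2 -0.077, CALML4 -0.25, CD69L -0.027, ZGPAT 0.020, SLIT1 0.18, YME1L1 0.091, ASF1A 0.092, ZCCHC11 0.11, NT5E 0.17, FZD6 0.014, LRRC45 0.022, PSAT1 0.016, HADHB 0.0055, BMP7 -0.12, NUCB2 0.032, ADIPOQ -0.17, RBP7 0.21, INSR 0.0019, TSC1 0.16, NDUFV3 0.24, JUN -0.098, BTG1 -0.045, LCP1 0.14, EGFL7 -0.019, EZR -0.075, GPM6A 0.15, CEL -0.028, STMN2 0.099, SCD -0.41, COL6A3 -0.013 and GPR183 -0.25. With the names as given, a gene is read from other spots, and those of opposite sign were TPM2 -0.037, CDT1 -0.020, LBH -0.026, TCP11X2 -0.066, IWS1 -0.051, CD69L -0.22, ZGPAT 0.077, SELPLG 0.21, RNF41 0.052, SLIT1 0.11, ZCCHC11 0.054, COL4A1 0.045, HSD17B12 0.33, FABP5 0.47, GPAT3 0.13, MSMO1 0.028, BMP7 -0.00027, RBP4 0.27, FGB 0.16, F8 0.095, RACK1 -0.046, IRF9 -0.087, CD40 0.051, CD3E -0.0025, ITGA8 -0.15, TNNI1 0.058, GPM6A 0.080, CELA1 0.051, STMN2 0.037, ACACA 0.11, RPL3 -0.050, COL1A2 -0.091, COL6A3 -0.019 and GPR183 -0.39. Turned and centred by print block, chosen after seeing the data, they were TCP11X2 -0.033, CALML4 -0.21, IWS1 -0.011, CD69L -0.046, ZGPAT 0.0067, SLIT1 0.16, YME1L1 0.13, ASF1A 0.071, ZCCHC11 0.099, NT5E 0.15, FZD6 0.024, LRRC45 0.020, PSAT1 0.20, ELOVL1 0.015, HADHB 0.020, CYP51A1 0.023, BMP7 -0.077, NUCB2 0.078, ADIPOQ -0.23, RBP7 0.24, THRA 0.13, INSR 0.0064, TSC1 0.13, FN1 -0.0050, NDUFV3 0.21, RPL27 -0.050, JUN -0.083, LCP1 0.16, EZR -0.012, GPM6A 0.19, CEL -0.024, CELA1 0.052, STMN2 0.057, SCD -0.36 and GPR183 -0.25. Centring by print block alone, also chosen after seeing the data, gave SCD -0.014, and leaving out 1 wk replicate 2 with 5 wk replicate 1 gave FASN 0.082 and ACACA 0.0077. Over single arrays left out, genes that took both signs ran as follows, ACACA -0.079 to 0.020, CD3E -0.077 to 0.21, FABP4 -0.65 to 0.37, FASN -0.16 to 0.080, POSTN -0.47 to 0.36, SCD -0.10 to 0.16 and THRSP -0.50 to 0.13. With spots kept single, genes and lists have no value. Scanner signals were not used, so dim spots cannot be told from bright ones.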
